A study of Mus musculus with 98 samples.

Results

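The comparison followed tau transgenic mice that had received a control virus as they aged. It was made of 10 libraries of the 98 in the series: all samples whose titles place them in the PS19 vector arm, with 5 mice killed 6 months after injection set against 5 killed 1 month after injection. PS19 mice carry mutant human tau under the mouse prion protein (Prnp) promoter. All 10 were labelled male, were injected at 2.5 months of age with 1.5 xE10 viral genomes of the PhP.eB vector without the Acss2 insert, and were killed 30 min after contextual recall that followed fear conditioning by 24 hours. The younger group was 3.5 months old and the older group 8.5 to 9 months old, and the tissue of both was labelled dorsal hippocampus. No non-transgenic littermate stands beside them in the table, so age, tau burden, time since the virus and any difference in when the 2 groups were collected and prepared cannot be told apart. The 5 libraries of a group were labelled as separate samples. All 20 PS19 libraries were fitted together, so p-values measure the spread between samples within all 4 groups. The 10 libraries of mice given the Acss2 virus are among them.

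Tau is a microtubule-binding protein of axons. In PS19 mice the mutant human form builds up in neurons with age, and the line is widely used because its hippocampus goes on to show tangle-like tau, activated microglia and astrocytes, and loss of synapses and neurons. Microglia are the brain's resident phagocytes; around damaged neurons they lower some resting genes and raise a program of lysosomal, lipid-handling and phagocytic genes under the receptor Trem2. Astrocytes respond by raising the filament protein Gfap, and complement proteins, which tag material for removal, come from both cell types. In whole tissue, fewer cells of a type and less RNA per cell cannot be told apart, and the same holds for more cells and more RNA per cell.

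The 10 libraries held between 11267526 and 22764555 counts. Over all 20 PS19 libraries of the fit, 15850 genes passed the filter on low counts. Levels below are CPM, counts scaled to the size of the library, after scaling by trimmed mean of M values, and the comparison is the log2 fold change (log2FC) at 6 months against 1 month from edgeR's quasi-likelihood test, with a Benjamini-Hochberg adjusted p below 0.05 counted as called. The hippocampal identity of the tissue was present in every library: Prox1, which marks dentate granule neurons, lay between 48.5 and 169 CPM, and Wfs1, which marks CA1 pyramidal neurons, between 68.2 and 302 CPM. Markers of neighbouring tissue varied between libraries. The thalamic transcription factor Tcf7l2 reached 62.8 CPM in replicate 4 at 6 months and lay between 2.77 and 8.79 CPM in the other 9, and the cortical interneuron gene Lamp5 reached 137 CPM in replicate 4 at 1 month and 106 CPM in replicate 3 at 6 months against at most 37.7 CPM in the rest. The choroid plexus transcript Ttr was at 786 CPM in replicate 4 at 1 month and between 44.7 and 374 CPM elsewhere. For 1 mouse, replicate 5 at 1 month, the treatment label named the Acss2 virus while its title named the vector. Its Acss2 level was 53.1 CPM, and the other vector libraries lay between 43.1 and 66.3 CPM.

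Of the 15850 genes tested, 1182 were called, which is 7.46%. There were 727 higher at 6 months (4.59%) and 455 lower (2.87%), against a median log2FC over all genes of 0.01. The shares of 4.59% and 2.87% are the background for every list count from this fit given below. Most changes were small: 134 of the genes that rose and 18 of those that fell moved by at least 2-fold. The 2 groups of 5 did not overlap for 871 of the called genes, and they did not overlap for 9.82% of all genes tested (5.16% above and 4.66% below). The call count rested heavily on single mice. Leaving out replicate 1 at 1 month left 374 genes, leaving out replicate 2 at 1 month left 427, leaving out replicate 4 at 6 months left 486, leaving out replicate 3 at 6 months left 701 and leaving out replicate 1 at 6 months left 761. Of the 1182 genes, 311 passed in every one of the 10 fits without 1 vector library. Among the genes described below with their calls, Tpp1, Npc1, Ctsa, Hapln2, Cspg4, Col11a1, Abcc9, Mvk, Meg3, Miat and Snhg11 passed in all 10. So did CT010467.1, Rn7sk, Cox4i1, Sdhb, Kcnmb4, Rnpc3, Col19a1, Clk1, Ttc14, Ddx17, Nxf1, Pnisr, Prpf39, Ndufb11, Ftx, Mir124a-1hg, Mirg, Cox17 and Amy1. C5ar1 and Ppp2ca passed in 9, Reln, Plin4 and mt-Rnr2 in 8, Csf1, Man2b1, Vcan and Col4a2 in 7, Olig2 in 6, Col4a1, Cdkn1a and Camk2n1 in 5, Trf, Mag, Cd68 and Jun in 4, Aspg in 3, and Csf1r, Hmox1, Hmgcs1, Msmo1, Malat1, Jchain and Ighg2c in 2. Scaling to library size alone raised the share of calls that were higher from 61.5% to 85.4%.

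**Figure D1:**
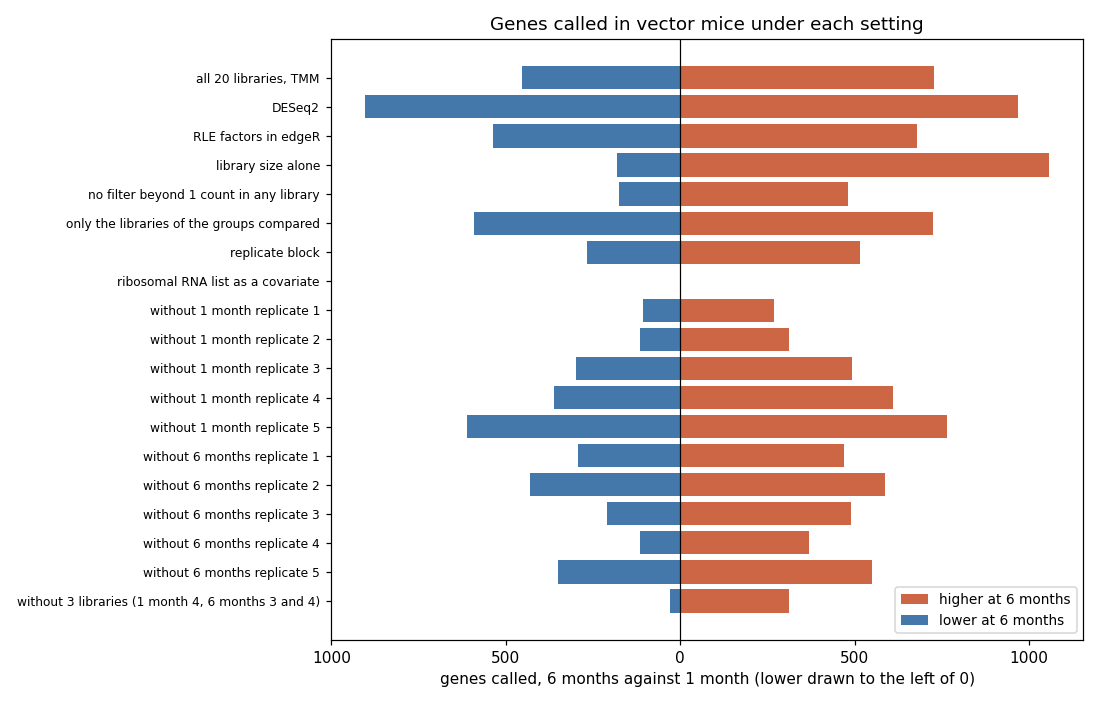
Number of genes called (horizontal axis; higher at 6 months to the right of 0, lower to the left) in vector mice under each setting named on the vertical axis. All 20 PS19 libraries with TMM scaling gave 727 higher and 455 lower, and the calls drop to 342 without the 3 libraries highest in neighbouring-tissue markers, to 374 and 427 without replicate 1 or 2 at 1 month, and to 0 with the ribosomal RNA list as a covariate.

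Neither the mouse tau gene nor the gene whose promoter drives the transgene passed the test; human tau was not analysed here. Mapt, the mouse tau gene (chr11:104231390-104332090, mm10), read 546, 484, 503, 604 and 453 CPM in replicates 1 to 5 at 1 month, and 511, 566, 523, 449 and 508 CPM at 6 months. Its log2FC was -0.02 (SE 0.10, edgeR adjusted p = 0.931), and the groups overlapped throughout. Prnp, whose promoter drives the transgene (chr2:131909928-131938429), averaged 1931 ± 187 CPM (SD, n = 5) at 1 month and 1889 ± 199 CPM at 6 months, with a log2FC of -0.03 (SE 0.16, edgeR adjusted p = 0.927). In vector mice of the series without a tau transgene, counted in tables that were normalised separately, Prnp averaged 905 ± 81.1 CPM (n = 5, 10 months old) and 898 ± 50.2 CPM (n = 12, aged), while Mapt averaged 516 ± 44.1 and 491 ± 23.8 CPM. Among 28 tested genes for tau, its kinases, its phosphatase and related cytoskeletal proteins, 1 was called, lower. Over all genes tested 2.87% were called lower. Ppp2ca, the catalytic subunit of the main tau phosphatase, lay between 499 and 553 CPM at 1 month and between 391 and 448 CPM at 6 months without overlap, a log2FC of -0.31 (SE 0.07, edgeR adjusted p = 0.0141). Acss2, the acetyl-CoA synthetase that the other virus carries, had a log2FC of -0.19 (SE 0.59, edgeR adjusted p = 0.872). It lay between 51.5 and 66.3 CPM at 1 month and between 43.1 and 56.0 CPM at 6 months. The same fit includes mice given the Acss2 virus, where Acss2 reached 1465 CPM at 1 month. Their spread enters this SE, so the test cannot decide whether Acss2 changed in vector mice.

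Some lysosomal genes, which serve the breakdown of proteins and lipids, rose. Of 30 tested lysosomal genes, 6 were higher and 1 lower, the median log2FC was 0.33, and 25 of the 30 lay above 0. Tpp1, a peptidase of the lysosomal lumen (chr7:105744811-105752235), read 45.9, 52.5, 51.8, 50.4 and 56.8 CPM at 1 month and 78.0, 70.2, 96.4, 85.1 and 76.7 CPM at 6 months. Every older mouse lay above every younger one, and the log2FC was 0.66 (SE 0.10, edgeR adjusted p = 0.000839). Npc1, which exports cholesterol from the lysosome, ran from 43.4 to 59.6 CPM at 1 month and from 68.3 to 120 CPM at 6 months without overlap, with a log2FC of 0.83 (SE 0.13, edgeR adjusted p = 0.00143). Ctsa, the protective protein cathepsin A (chr2:164832873-164841032), was at 63.1, 67.7, 61.5, 70.6 and 83.5 CPM at 1 month and at 98.9, 80.4, 145, 112 and 114 CPM at 6 months. The groups touched only where replicate 5 of the younger mice passed replicate 2 of the older, and the log2FC was 0.67 (SE 0.13, edgeR adjusted p = 0.00511). These 3 genes were called in all 10 fits that left out 1 library. Man2b1, a lysosomal mannosidase, rose by a log2FC of 0.89 (SE 0.22). Atp6v1h, a subunit of the proton pump that acidifies the lysosome, went the other way with a log2FC of -0.32 (SE 0.08, edgeR adjusted p = 0.0194).

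Lysosomal genes are known targets of the TFEB family of transcription factors, which bind an E-box, CACGTG, in promoters. The windows of Ctsa and Tpp1 are shown because both genes were called in every fit without 1 library. Sequences are from RefSeq on GRCm38.p6, from 250 bases before the annotated start to 20 after it, 5′ to 3′ on the gene's strand, with CACGTG in capitals; the motif is its own reverse complement. The Ctsa window, chr2:164833523-164833792 on the plus strand, holds it at positions -12 and 6 counted from the start, and the second lies past the start. This is the second of 2 annotated Ctsa starts in the table; the window of the other start, chr2:164832622-164832891, holds no match, so whether Ctsa differs from Tpp1 in this motif depends on the start used. The Tpp1 window, chr7:105752216-105752485 on the minus strand, holds none.
Ctsa: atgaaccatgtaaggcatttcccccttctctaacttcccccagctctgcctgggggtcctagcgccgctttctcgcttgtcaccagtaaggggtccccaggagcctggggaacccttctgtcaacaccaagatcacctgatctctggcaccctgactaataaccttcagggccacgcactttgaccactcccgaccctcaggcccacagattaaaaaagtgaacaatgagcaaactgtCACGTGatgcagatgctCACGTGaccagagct
Tpp1: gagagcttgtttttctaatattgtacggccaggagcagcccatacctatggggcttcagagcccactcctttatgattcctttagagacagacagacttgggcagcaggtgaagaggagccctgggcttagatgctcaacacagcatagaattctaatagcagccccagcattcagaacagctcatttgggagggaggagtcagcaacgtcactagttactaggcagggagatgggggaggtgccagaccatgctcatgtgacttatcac
Over windows of 300 bases, 9 of the 24 tested lysosomal genes with an entry held CACGTG (37.5%), against 8.09% of all 27025 genes in the promoter table. Of the 7 lysosomal genes called in either direction, 4 had an entry, and Ctsa was the 1 that held the motif, in 1 of its 2 windows.

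The microglial and complement lists held 1 or 2 called genes each, and the number changed with several single mice. Over all genes tested 4.59% were higher and 2.87% lower. Of 14 tested homeostatic microglial genes 1 was called higher, of 25 disease-associated microglial genes 2, and of 13 complement genes 1, with none lower. Their median log2FC values were 0.54, 0.55 and 0.56, and 14 of 14, 23 of 25 and 9 of 13 lay above 0. Cd68, a lysosomal membrane protein of phagocytes (chr11:69664213-69666153), read 5.87, 8.68, 6.55, 4.29 and 16.8 CPM at 1 month and 16.4, 10.6, 34.5, 22.5 and 21.2 CPM at 6 months. Replicate 5 of the younger mice lay above 2 of the older ones, and the other 4 younger mice lay below all of them. Its log2FC was 1.33 (SE 0.35, edgeR adjusted p = 0.0266), and it was called in 4 of the 10 fits without 1 library. Csf1, a growth factor for microglia, rose by a log2FC of 0.78 (SE 0.19, edgeR adjusted p = 0.0194), and its receptor Csf1r by 0.60 (SE 0.17, edgeR adjusted p = 0.0432). C5ar1, the receptor for the complement fragment C5a, was scarce at 0.0793, 0.453, 0.127, 0.0727 and 0.435 CPM at 1 month and reached 0.651, 0.342, 2.06, 1.32 and 1.79 CPM at 6 months. It rose by a log2FC of 2.42 (SE 0.56, edgeR adjusted p = 0.0163).

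The young mouse that stood apart was replicate 5, the one whose treatment label and title disagree. Trem2, the lipid receptor of activated microglia, was at 34.4 CPM in it and at 11.6, 19.7, 13.2 and 11.6 CPM in the other young mice, against 25.7, 15.8, 52.5, 38.4 and 33.8 CPM at 6 months. Cst7, a protease inhibitor that is nearly silent in resting microglia, was at 19.4 CPM in replicate 5 and between 0.238 and 4.30 CPM in the other 4, and the highest older mouse was at 8.0 CPM. The complement protein C3 read 109 CPM in that mouse, at most 14.6 CPM in the other young mice and at most 39.1 CPM in the older ones. Across all 5 against 5, Trem2 had a log2FC of 0.88 (SE 0.37, edgeR adjusted p = 0.137), Cst7 of 0.03 (SE 0.86, edgeR adjusted p = 0.99) and C3 of -0.84 (SE 0.83, edgeR adjusted p = 0.564).

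Leaving out replicate 5 at 1 month raised the calls to 10 of 25 disease-associated microglial genes, 4 of 14 homeostatic genes, 6 of 13 complement genes, 7 of 20 reactive astrocyte genes and 13 of 30 lysosomal genes, all higher at 6 months, where 4.74% of the 16152 genes tested in that fit were higher and 3.78% lower. Hsbp1, a member of the reactive astrocyte list, and the lysosomal gene Atp6v1h were lower in it. In that fit Trem2 had a log2FC of 1.22 (SE 0.35, edgeR adjusted p = 0.0392), C4b of 2.28 (SE 0.55, edgeR adjusted p = 0.0198) and Gfap of 1.46 (SE 0.41, edgeR adjusted p = 0.0327). Cst7 at 1.69 (SE 0.82, edgeR adjusted p = 0.198) and C3 at 1.01 (SE 0.68, edgeR adjusted p = 0.364) still missed the threshold. Further genes, named after their values were seen, were the integrin Itgax at 2.73, the chemokine Ccl3 at 2.90, the cytokine receptor subunit Osmr at 2.16 and progranulin, Grn, at 0.92 (edgeR adjusted p = 0.0289, 0.00594, 0.00865 and 0.00119). Other single libraries moved these counts too. The disease-associated count of 2 became 0 without replicate 1 at 1 month or without replicate 3 or 4 at 6 months, 1 without replicate 2, 3 or 4 at 1 month, and 5 without replicate 2 at 6 months. The lysosomal count of 6 became 3 without replicate 1 or 3 at 1 month or replicate 3 at 6 months, and 10 without replicate 2 at 6 months. The reactive astrocyte count of 1 became 3 without replicate 2 at 6 months and 0 in 7 of the other fits, the homeostatic count became 2 without that mouse and 0 in 7 fits, and the complement count became 0 without replicate 1 at 1 month. A further fit left out the 3 libraries highest in neighbouring-tissue markers (replicate 4 at 1 month, replicates 3 and 4 at 6 months). It called 342 genes (2.15%, with 1.97% higher and 0.182% lower), among them 2 lysosomal genes, both higher. No gene from the microglial, complement and reactive astrocyte lists was called in it. Fewer mice in each group lower the number of calls by themselves, and the part of neighbouring tissue was not tested.

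**Figure D2:**
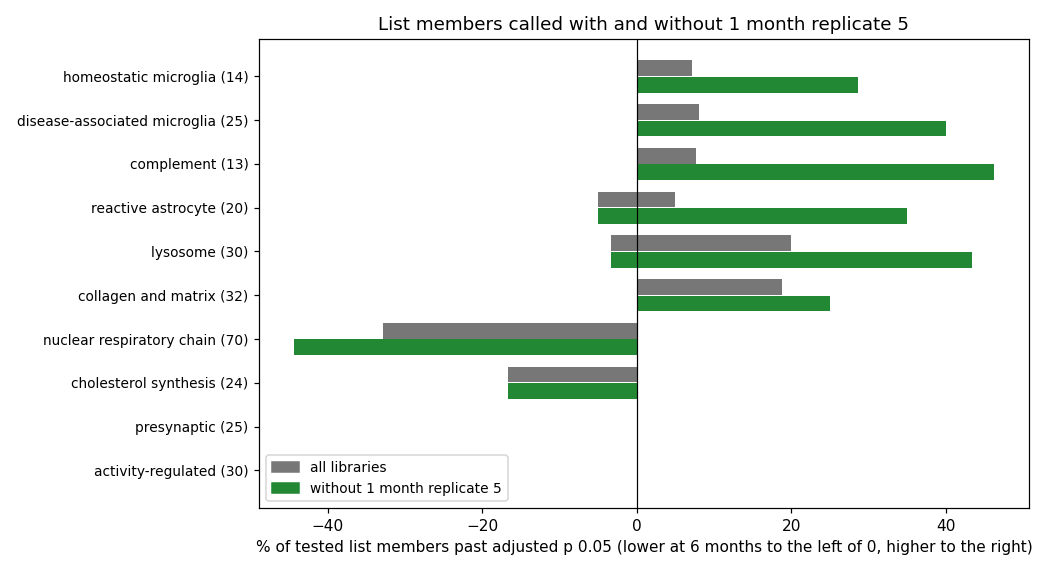
Share of the tested members of each list that passed the test (horizontal axis, percent; higher at 6 months to the right of 0, lower to the left), with all libraries in grey and without 1 month replicate 5 in green. Number of members tested with all libraries is in brackets; the disease-associated microglial list moves from 2 to 10 members called and the lysosomal list from 6 to 13, while the presynaptic and activity-regulated lists stay at 0.

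The astrocyte lists gave few calls, and over all genes tested 4.59% were higher and 2.87% lower. Of 20 members of the reactive astrocyte list, 1 was higher and 1 lower, with a median log2FC of 0.44. Of 15 genes of astrocyte identity, such as the water channel Aqp4 and the glutamate transporter Slc1a2, edgeR called 0, 4 had an unadjusted p below 0.05, and DESeq2 also called 0. Gfap (chr11:102887336-102900912) was at 692, 1298, 912, 403 and 1780 CPM at 1 month and at 1874, 981, 4108, 2679 and 1937 CPM at 6 months. The 2 ranges overlapped through replicate 2 of the older mice and replicates 2 and 5 of the younger, and the log2FC of 1.19 (SE 0.40, edgeR adjusted p = 0.0697) did not pass. Aspg, an asparaginase that reactive astrocytes express, read 0.872, 3.40, 2.35, 1.16 and 7.22 CPM at 1 month and 10.2, 4.20, 15.3, 10.5 and 7.88 CPM at 6 months. It rose by a log2FC of 1.69 (SE 0.46, edgeR adjusted p = 0.0309). The list member called lower, Hsbp1, is a regulator of the heat shock factor, and whether it marks reactive astrocytes was not tested. It fell by 0.29 on the log2 scale (SE 0.08, edgeR adjusted p = 0.0405). Gfap and the called oligodendrocyte genes Hapln2, Trf and Mag below were highest in replicates 3 and 4 of the older mice. Of these mice, replicate 3 had the highest summed cortical markers of that group and replicate 4 the highest thalamic ones. The part of dissection in these values was not tested.

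Antibody genes fell in part, and with all mice edgeR called no MHC class II gene. The 7 tested MHC class II genes, through which phagocytes show peptides to T cells, had a median log2FC of -2.63, all 7 below 0. EdgeR called 0 of them, 6 had an unadjusted p below 0.05, and DESeq2 called 1 lower. Cd74, the class II invariant chain, read 40.7, 178, 42.7, 1.02 and 734 CPM at 1 month and 12.3, 3.17, 54.6, 44.8 and 45.4 CPM at 6 months. Replicates 2 and 5 of the younger mice lay above every older one and replicate 4 below every one, and the log2FC was -2.63 (SE 1.20, edgeR adjusted p = 0.178). Without replicate 5 at 1 month the class II median was -1.21 and Cd74 stood at -1.05 (SE 1.10, edgeR adjusted p = 0.58). Without replicate 4 at 1 month 2 class II genes were called lower. Antibody transcripts, which come from plasma cells, fell: of 7 tested, Jchain, which joins antibody chains, and Ighg2c, a heavy chain, were called lower. Ighg2c was at 19.7, 5.36, 1.53, 1.38 and 34.4 CPM at 1 month and between 0.244 and 0.895 CPM at 6 months without overlap, a log2FC of -4.93 (SE 1.37, edgeR adjusted p = 0.0353). Jchain had a log2FC of -3.64 (SE 1.08, edgeR adjusted p = 0.0459), and neither was called without replicate 5 at 1 month (adjusted p = 0.137 for Jchain and 0.0642 for Ighg2c). Among 27 interferon response genes, edgeR and DESeq2 called 0, none had an unadjusted p below 0.05, and the median log2FC was -0.23 with all mice and 0.72 without replicate 5. Of 6 tested T and NK cell genes edgeR called 0, 2 had an unadjusted p below 0.05, and the summed level was 47.9 CPM in replicate 5 and at most 16.5 CPM in the other 9 libraries.

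**Figure D3:**
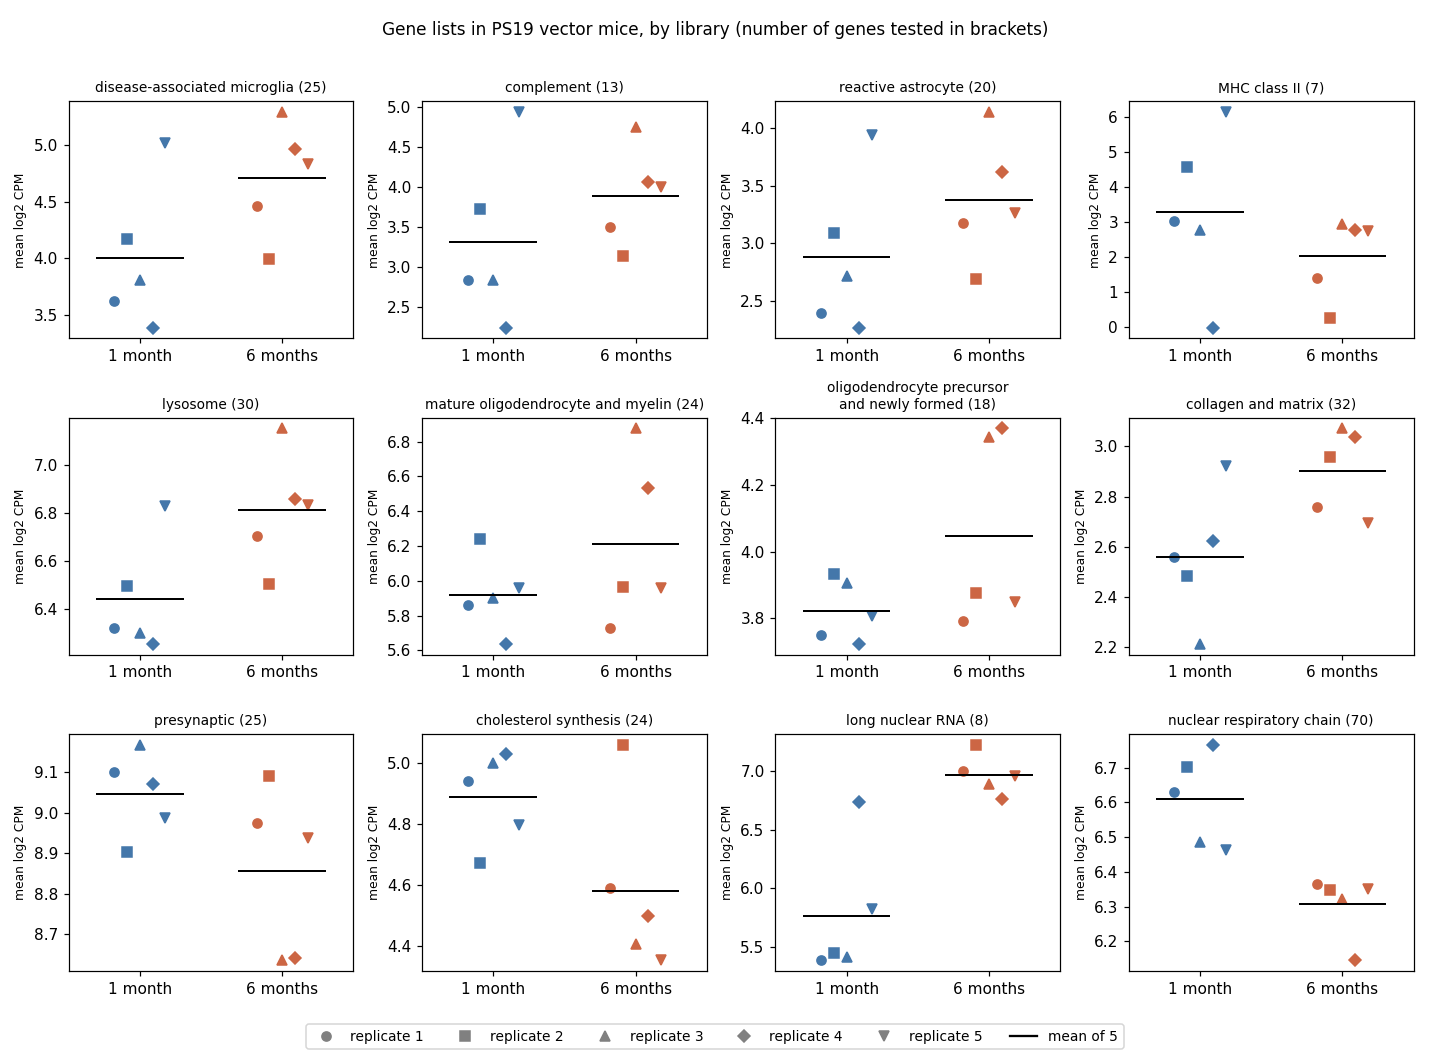
Mean log2 CPM of the tested genes of each of 12 lists (vertical axis) in every vector library at 1 month (blue) and 6 months (orange); symbols mark replicate numbers and lines the mean of 5. Replicate 5 at 1 month lies within or above the older mice for microglia, complement, astrocytes, MHC class II and lysosome, and replicate 4 at 1 month lies just under the lowest older mouse for long nuclear RNA (6.74 against 6.77).

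Oligodendrocyte lineage genes rose in part, where 4.59% of all genes tested were called higher. Among 24 genes of mature oligodendrocytes and myelin, 3 were called higher with a median log2FC of 0.25, and among 18 genes of precursors and newly formed cells, 4 were called higher with a median of 0.25; none was lower. The myelin proteins Mbp and Mog were not among them, with log2FC values of -0.25 (SE 0.23) and -0.01 (SE 0.22). Hapln2, a link protein at nodes of Ranvier (chr3:88021750-88027583), read 7.45, 10.4, 8.20, 7.35 and 8.44 CPM at 1 month and 12.1, 14.1, 19.7, 17.6 and 14.1 CPM at 6 months. It rose without overlap by a log2FC of 0.89 (SE 0.17, edgeR adjusted p = 0.00623). Trf, the iron carrier transferrin made by oligodendrocytes, rose by 1.05 (SE 0.28, edgeR adjusted p = 0.0283), with 710 and 464 CPM in older replicates 3 and 4 and 248 to 297 CPM in the other 3. Mag, a myelin adhesion protein, rose by 0.74 (SE 0.21, edgeR adjusted p = 0.0372), but was called in 4 of the 10 fits without 1 library.

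Cspg4, the NG2 proteoglycan of oligodendrocyte precursors and of pericytes (chr9:56865033-56899870), was at 8.56, 11.1, 11.5, 10.9 and 10.4 CPM at 1 month and at 18.9, 17.3, 19.8, 19.1 and 18.3 CPM at 6 months, a log2FC of 0.83 (SE 0.16, edgeR adjusted p = 0.00498). Vcan, a matrix proteoglycan of the same cells, rose without overlap by 0.55 (SE 0.13, edgeR adjusted p = 0.0181), and Olig2, a transcription factor of the lineage, by 0.62 (SE 0.15, edgeR adjusted p = 0.0213). Pdgfra, the growth factor receptor that defines precursors, had a log2FC of 0.13 (SE 0.08, edgeR adjusted p = 0.37), and its levels lay between 40.6 and 53.7 CPM in all 10 libraries.

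Matrix and vessel wall genes rose in small numbers. Of 32 tested collagen and matrix genes 6 were higher and 0 lower, with a median log2FC of 0.36. Over all genes tested 4.59% were higher and 2.87% lower. Col4a1 and Col4a2, the paired chains of basement membrane collagen, went from 13.8 to 19.7 CPM and 16.2 to 22.6 CPM at 1 month to 22.3 to 38.5 CPM and 25.7 to 49.8 CPM at 6 months, without overlap. The log2FC was 0.70 (SE 0.19) for Col4a1 and 0.84 (SE 0.21) for Col4a2 (edgeR adjusted p = 0.028 and 0.0247). Col11a1, a fibrillar collagen (chr3:114030540-114220718), was at 2.69, 5.06, 7.69, 5.38 and 8.96 CPM at 1 month and at 29.5, 36.4, 7.20, 19.6 and 22.5 CPM at 6 months. Replicate 3 of the older mice lay among the younger ones, and the log2FC was 1.95 (SE 0.38, edgeR adjusted p = 0.00611). Abcc9, the potassium channel subunit of pericytes, rose without overlap by 1.26 (SE 0.22, edgeR adjusted p = 0.00354). It was 1 of 2 genes called in a list of 13 mural genes, the other being Cspg4, and the pericyte genes Pdgfrb and Rgs5 had log2FC values of 0.41 (SE 0.16) and 0.08 (SE 0.14) that did not pass. Fibril collagen Col1a1, a fibroblast gene, had a log2FC of -0.37 (SE 0.36), and of 13 meningeal and fibroblast genes edgeR and DESeq2 called 0, with 1 at an unadjusted p below 0.05.

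Neuronal genes showed few calls. Of 25 presynaptic genes edgeR called 0, although 20 lay below 0, 8 had an unadjusted p below 0.05 and DESeq2 called 2 lower; the median log2FC was -0.19. Snap25, a release machinery protein, had a log2FC of -0.37 (SE 0.14, edgeR adjusted p = 0.0983). Of 25 postsynaptic genes edgeR and DESeq2 called 0, with 2 at an unadjusted p below 0.05 and a median of -0.06. Presynaptic mean levels were lowest in replicates 3 and 4 of the older mice, where glial genes were highest. Genes of CA2 and CA3 pyramidal neurons lay lower in 15 of 16 cases with a median of -0.31, but edgeR and DESeq2 called 0 and 3 had an unadjusted p below 0.05. The CA3 gene Bok was at 101, 118, 135, 75.4 and 120 CPM at 1 month and at 84.8, 74.7, 27.9, 54.2 and 76.9 CPM at 6 months, a log2FC of -0.79 (SE 0.31, edgeR adjusted p = 0.117). For 11 CA1 genes and 18 dentate granule genes edgeR called 0 (0 and 1 at an unadjusted p below 0.05, DESeq2 0 and 1).

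The genes that neurons switch on after learning gave no call: of 30 activity-regulated genes, all collected after recall, edgeR and DESeq2 called 0, 1 had an unadjusted p below 0.05, and the median log2FC was 0.03. Fos and Arc had log2FC values of 0.06 (SE 0.22) and 0.05 (SE 0.22). Of 21 genes of newborn neurons edgeR called 0, with 3 at an unadjusted p below 0.05 and 1 called lower by DESeq2; Dcx had a log2FC of -0.09 (SE 0.18). Of 18 interneuron genes 1 was called, higher, where 4.59% of all genes tested were higher. Reln, the secreted guidance protein reelin (chr5:21884454-22344702), read 46.6, 51.2, 67.7, 59.1 and 66.5 CPM at 1 month and 107, 88.5, 101, 95.8 and 88.0 CPM at 6 months, a rise of 0.72 (SE 0.17, edgeR adjusted p = 0.0161) with no overlap. In the interneuron list Gad1, Pvalb and Sst had log2FC values of 0.32 (SE 0.11), 0.09 (SE 0.29) and 0.06 (SE 0.19) and did not pass.

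Injury and stress genes gave 3 calls of 16, all higher, where 4.59% of all genes tested were higher. Cdkn1a, the cell cycle inhibitor p21, was at 4.04, 4.68, 4.20, 8.58 and 9.91 CPM at 1 month and at 10.0, 7.61, 30.4, 17.3 and 12.5 CPM at 6 months, a log2FC of 1.31 (SE 0.35, edgeR adjusted p = 0.0283). Hmox1, the haem-degrading enzyme, rose by 0.96 (SE 0.28, edgeR adjusted p = 0.0434) and Jun, a transcription factor of injured neurons, by 0.45 (SE 0.12, edgeR adjusted p = 0.0261). Atf3, which marks injured neurons, had a log2FC of 1.00 (SE 0.41, edgeR adjusted p = 0.131). Of 23 unfolded protein and integrated stress response genes edgeR and DESeq2 called 0, with 3 at an unadjusted p below 0.05 and a median of 0.01.

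Some genes of cholesterol synthesis fell. Of 24 tested, 4 were lower and 0 higher, 20 lay below 0, and the median log2FC was -0.30. Mvk, mevalonate kinase (chr5:114444269-114460591), read 18.8, 16.8, 16.7, 17.1 and 15.4 CPM at 1 month and 9.93, 14.6, 11.8, 12.7 and 11.6 CPM at 6 months, and fell without overlap by 0.48 on the log2 scale (SE 0.10, edgeR adjusted p = 0.0101). Hmgcs1 (chr13:119690379-119708260) acts early in the pathway. It was at 354, 277, 367, 316 and 289 CPM at 1 month and at 195, 327, 156, 181 and 170 CPM at 6 months. Replicate 2 of the older mice stayed among the younger ones, and the log2FC was -0.64 (SE 0.18, edgeR adjusted p = 0.041). Msmo1, a sterol demethylation enzyme, had the same shape, with 83.9 CPM in that mouse and 38.8 to 48.4 CPM in the other 4 older ones, and a log2FC of -0.67 (SE 0.19, edgeR adjusted p = 0.0398). Without that mouse 10 genes of the list were called lower; without each of the other 9 in turn, 1 to 4 were.

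Sterol genes are controlled by SREBP factors, whose sites contain the letters CACCCCAC. The Hmgcs1 window is shown because the gene acts early in the pathway and was called. It is from RefSeq on GRCm38.p6, chr13:119690101-119690370 on the plus strand, laid out as above with CACCCCAC in capitals. The window holds the motif at position -136.
Hmgcs1: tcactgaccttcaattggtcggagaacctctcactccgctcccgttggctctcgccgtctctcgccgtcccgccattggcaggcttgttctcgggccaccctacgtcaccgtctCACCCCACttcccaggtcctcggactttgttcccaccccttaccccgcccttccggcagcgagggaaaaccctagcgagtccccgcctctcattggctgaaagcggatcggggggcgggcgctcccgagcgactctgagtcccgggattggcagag
On either strand of windows of 300 bases, 2 of 17 tested cholesterol genes with an entry held these letters (11.8%), against 3.30% of all genes in the promoter table. Mvk, Msmo1 and Idi1, the other 3 called members, had an entry and held no match.

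Long RNAs that stay in the nucleus rose. Of 8 tested long nuclear RNAs 6 were higher and 0 lower, with a median log2FC of 1.26. Miat, a neuronal nuclear RNA (chr5:112213228-112229395), read 37.9, 40.5, 43.5, 79.4 and 50.5 CPM at 1 month and 155, 179, 104, 97.6 and 146 CPM at 6 months, and rose without overlap by 1.44 (SE 0.24, edgeR adjusted p = 0.0024). Meg3, an imprinted RNA of neuronal nuclei (chr12:109541001-109571726), was at 197, 185, 200, 733 and 278 CPM at 1 month and at 852, 1152, 878, 700 and 793 CPM at 6 months, a log2FC of 1.46 (SE 0.33, edgeR adjusted p = 0.0143). Malat1 followed the same order with 590 CPM in replicate 4 at 1 month, 162 to 274 CPM in the other young mice and 482 to 817 CPM at 6 months, and a log2FC of 1.08 (SE 0.30, edgeR adjusted p = 0.0378). Replicate 4 of the younger mice lay among the older ones for Meg3 and Malat1. Over the annotation, 7.29% of 1111 long non-coding genes were called higher and 1.08% lower, against 4.58% and 3% of 13878 protein-coding genes.

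Genes for RNA processing were prominent among those with the lowest adjusted p, a grouping noticed after their values were seen. Clk1, a kinase of splicing factors (chr1:58410189-58424066), was at 39.5, 50.3, 35.7, 53.2 and 53.8 CPM at 1 month and at 105, 101, 80.7, 98.3 and 85.1 CPM at 6 months, a log2FC of 1.02 (SE 0.15, edgeR adjusted p = 0.000839). Rnpc3, a protein of the minor spliceosome, rose by 1.3 (SE 0.16, edgeR adjusted p = 0.000415), from 5.15 to 8.61 CPM at 1 month to 12.9 to 19.5 CPM at 6 months. Others with no overlap between the groups were the RNA helicase Ddx17 at 0.47 (SE 0.06), the export factor Nxf1 at 0.79 (SE 0.10), the splicing proteins Pnisr at 1.05 (SE 0.15) and Prpf39 at 0.85 (SE 0.11), and Ttc14 at 1.10 (SE 0.13).

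In the same libraries, cytosolic and mitochondrial ribosomal RNA was lower. CT010467.1, a ribosomal RNA locus (chr17:39846353-39848827), read 8336, 8285, 7725, 3884 and 4831 CPM at 1 month and 1164, 1930, 2110, 1517 and 2164 CPM at 6 months, a log2FC of -1.90 (SE 0.30, edgeR adjusted p = 0.002). The mitochondrial large ribosomal RNA mt-Rnr2 fell without overlap by 0.96 on the log2 scale (SE 0.23, edgeR adjusted p = 0.0191). Of 14 tested genes of the mitochondrial genome 2 were called lower, the ribosomal RNAs mt-Rnr1 and mt-Rnr2. The median log2FC of that list was -0.33, and in upACSS2 mice 0.06. Rn7sk, a small nuclear RNA that restrains transcription elongation, fell without overlap by 1.42 (SE 0.30, edgeR adjusted p = 0.0104). It was scarce, at 1.82 to 3.41 CPM at 1 month and 0.660 to 1.14 CPM at 6 months. Bc1, a neuronal non-coding RNA that represses translation at synapses (chr7:144914470-144914637, plus strand), was at 1595, 1681, 1342, 4036 and 1300 CPM at 1 month and at 842, 818, 715, 160 and 918 CPM at 6 months. The groups did not overlap, the log2FC was -1.53 (SE 0.46, edgeR adjusted p = 0.0488), and it was called in 1 of the 10 fits without 1 library. Its transcript is shown because the kit named in the labels' protocols is one for poly(A) selection and the sequence carries an internal stretch of A. The 168 bases are from GENCODE on GRCm38, with the 50 bases richest in A in capitals; 43 of them, from position 77 to 126, are A, with a longest run of 23.
Bc1: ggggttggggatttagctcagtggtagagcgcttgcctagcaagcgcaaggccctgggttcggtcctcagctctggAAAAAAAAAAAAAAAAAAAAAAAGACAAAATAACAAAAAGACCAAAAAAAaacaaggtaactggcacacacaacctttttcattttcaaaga

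Part of the nuclear genes for oxidative phosphorylation fell. Of 70 tested nuclear genes of the respiratory chain 23 were lower and 0 higher, 69 lay below 0, and the median log2FC was -0.31. Cox4i1, a subunit of cytochrome oxidase (chr8:120668222-120674207), read 531, 560, 480, 564 and 467 CPM at 1 month and 368, 363, 385, 346 and 360 CPM at 6 months, and fell without overlap by 0.51 on the log2 scale (SE 0.12, edgeR adjusted p = 0.0141). Sdhb, a subunit of succinate dehydrogenase, fell without overlap by 0.42 (SE 0.09, edgeR adjusted p = 0.0129), and Ndufb11, of complex I, by 0.54 (SE 0.12, edgeR adjusted p = 0.013). Of 75 cytosolic ribosomal protein genes 5 were lower, 73 lay below 0, and the median was also -0.31. The number of respiratory genes called was 39 by DESeq2, 8 with library size alone, 15 with the replicate number as a block and 1 without the 3 libraries named above. It was 5 and 6 without replicate 1 or 2 at 1 month, 13 without replicate 4 at 1 month, 14, 10, 6 and 12 without replicates 1, 3, 4 and 5 at 6 months, and 31 or 17 in the other fits without 1 library.

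Among protein-coding genes the share of calls in each direction differed by transcript length. With protein-coding genes split by longest annotated transcript into 4 classes of equal number, in the shortest class (243 to 2324 bases) 1.44% were higher and 6.45% lower, with a median log2FC of -0.12. In the longest class (4963 to 123179 bases) 7.99% were higher and 0.605% lower, with a median of 0.11. In the upACSS2 mice, the same comparison of 6 months with 1 month gave medians of 0.06 in the shortest class and -0.05 in the longest. The ribosomal RNA list had 2 members in the counts, CT010467.1 and the protein-coding gene Lars2. It took 0.428 to 0.864% of counts at 1 month and 0.134 to 0.258% at 6 months without overlap. The long nuclear RNA list took 0.0785 to 0.216% and 0.218 to 0.313%, also without overlap. With the log2 CPM of the ribosomal RNA list as a covariate edgeR called 0 genes, 1753 had an unadjusted p below 0.05; that level separates the 2 groups, so the covariate and the time after injection cannot be told apart. The part of RNA quality or library preparation in these changes was not tested.

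**Figure D4:**
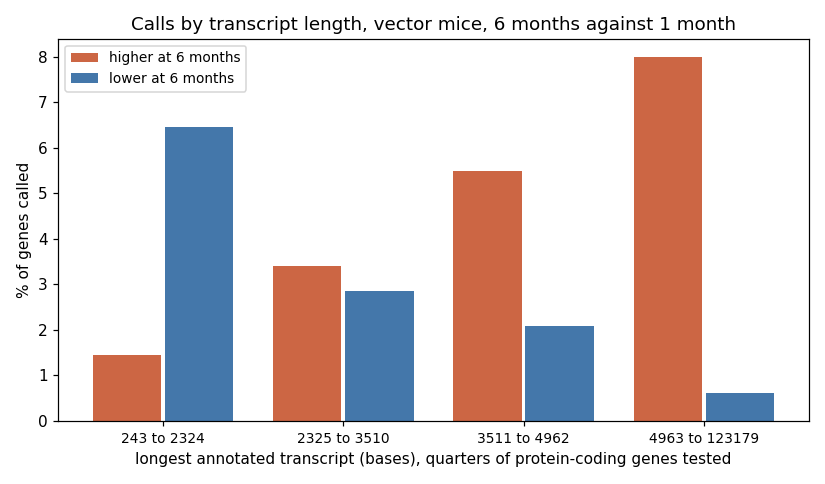
Percent of protein-coding genes called higher (orange) or lower (blue) at 6 months in vector mice (vertical axis), in 4 classes of longest annotated transcript in bases (horizontal axis). Calls shift from 6.45% lower in the shortest class to 7.99% higher in the longest.

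Among the 758 called genes that averaged a log2 CPM of 1 or more, did not overlap and were not predicted loci, the highest and lowest 15 by log2FC joined several of these groups. At the top stood Plin4, a lipid droplet protein that responds to glucocorticoids, with 1.27, 2.04, 0.954, 1.38 and 1.83 CPM at 1 month and 2.60, 2.73, 9.49, 4.77 and 3.50 CPM at 6 months. It rose by 1.63 (SE 0.39, edgeR adjusted p = 0.0189), while the glucocorticoid targets Fkbp5 and Sgk1 had log2FC values of -0.14 (SE 0.16) and 0.29 (SE 0.11) that did not pass. Next came the RNAs Ftx at 1.60 (SE 0.31), from the X inactivation centre, Mir124a-1hg at 1.58 (SE 0.27), the host of a neuronal microRNA, and Mirg at 1.54 (SE 0.34), an imprinted RNA. They were followed by Cox17, a copper chaperone of cytochrome oxidase, at 1.49 (SE 0.23), and Snhg11 at 1.46 (SE 0.29). Further down were Col19a1, a collagen, at 1.26 (SE 0.22) and Fbln5, an elastic fibre protein, at 1.42 (SE 0.36). Amy1, an amylase whose reads similar genes can share, stood at 1.39 (SE 0.26). Its annotated span (chr3:113555710-113606699) overlaps that of Rnpc3 (chr3:113605067-113630149) on the same strand. Whether Amy1 and Rnpc3 rose separately was not tested. Among the lowest were Camk2n1, an inhibitor of CaMKII, at -0.76 (SE 0.21), Rapgef4, a cyclic AMP effector, at -0.73 (SE 0.19), and Kcnmb4, a potassium channel subunit, at -0.69 (SE 0.11). Camk2n1 stood at 2284 CPM in replicate 4 at 1 month, 994 to 1045 CPM in the other young mice and 607 to 944 CPM at 6 months. Kcnmb4 was called in all 10 fits without 1 library, with 53.4 to 73.0 CPM at 1 month and 32.0 to 39.1 CPM at 6 months.

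**Figure D5:**
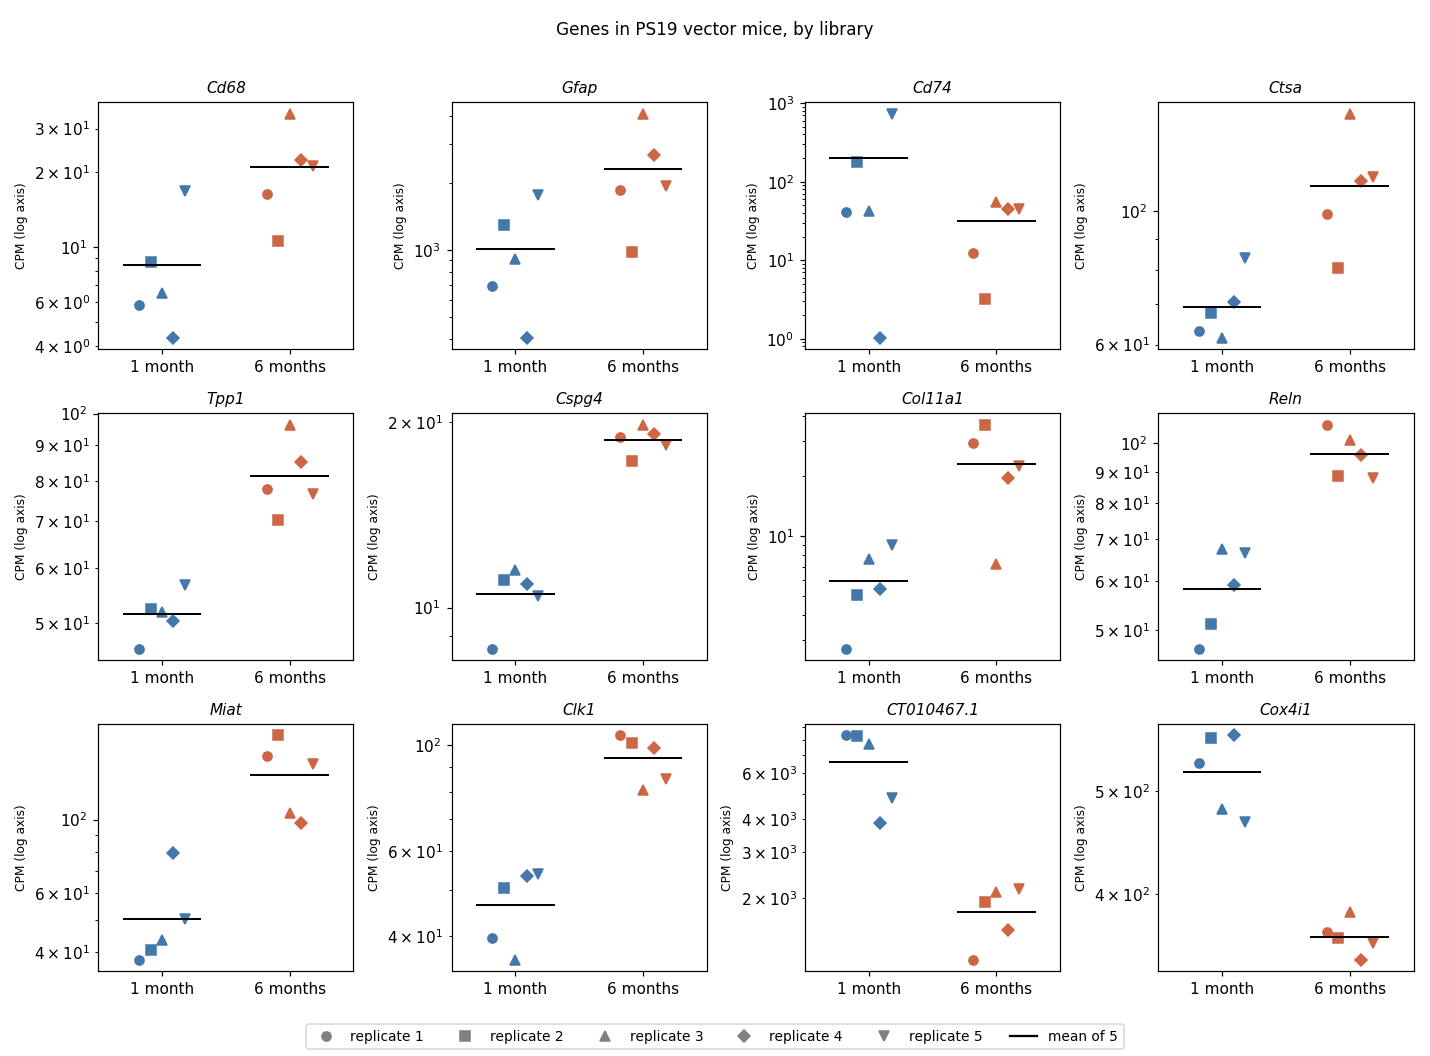
CPM on a log axis (vertical) of 12 genes in every vector library at 1 month (blue) and 6 months (orange); symbols mark replicate numbers and lines the arithmetic mean of 5. Tpp1, Cspg4, Reln, Miat, Clk1, CT010467.1 and Cox4i1 separate the groups, whereas Cd68, Gfap, Cd74, Ctsa and Col11a1 overlap.

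The upACSS2 mice give 10 further PS19 libraries, from mice of the same ages that had received the virus carrying Acss2; they share no library with the vector comparison. Their 1 month tissue was labelled whole hippocampus and their 6 month tissue dorsal hippocampus, and the treatment labels of all 5 mice at 1 month named the vector against their titles. Between 6 and 1 month 7 genes were called in them (0.0442%), 6 higher (0.0379%) and 1 lower (0.00631%). For virus by time, the test of the difference between the 2 time courses, edgeR called 0 genes, 1956 had an unadjusted p below 0.05, and DESeq2 called 3. Across the 15850 genes the 2 log2FC values had a Spearman correlation of 0.282, given as a description because genes are not independent replicates. Of the 1182 genes called in vector mice 972 had the same sign in upACSS2 mice (82.2%, against 58.2% of all tested), 380 of these with an unadjusted p below 0.05. In upACSS2 mice Ttc14 had a log2FC of 0.56, Hapln2 of 0.83, Ctsa of 0.41 and Tpp1 of 0.32, whereas Reln was at 0.05, Rn7sk at -0.01 and Cox4i1 at -0.10. The median of the respiratory chain list was 0.07 and that of the ribosomal protein list 0.10 there, against -0.31 for both in vector mice, and the long nuclear RNA list stood at 0.80. Disease-associated microglial genes had a median of 0.58 in upACSS2 mice and 0.55 in vector mice.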

How the data were processed

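Total RNA was extracted with Trizol-chloroform and an RNeasy column, and 130 ng went into each library, per the labels' protocols. The authors deposited raw read counts per gene symbol in 1 table of 20 PS19 libraries. The submitters' processing notes name mm10, STAR, featureCounts, HTSeq and DESeq2; versions and which tool made these counts are not given in the sources used here, nor is whether counting used strand.

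All 20 libraries (4 groups of 5) were fitted in edgeR 4.0.16 (R 4.3.3) with its expression filter, TMM scaling and the quasi-likelihood test, with 16 residual degrees of freedom; groups were taken from sample titles. The adjusted p threshold was 0.05 (Benjamini-Hochberg). Alternatives were DESeq2 1.42.0, RLE factors, library size alone, no filter, the vector libraries alone, a replicate block, a ribosomal RNA covariate and each library left out. The code was tested on simulated counts. Locations came from GENCODE M21, where 15574 of 15850 tested genes had a single locus.

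Members and gene lists were chosen with earlier results of these data known. Named genes were Acss2, Mapt and Prnp; the first 3 of each list and up to 6 further called members; and the 15 highest and 15 lowest called, non-overlapping genes that averaged a log2 CPM of 1 or more, predicted loci aside. Genes outside this rule, the tissue markers and further list members among them, were chosen after their values were seen. A few genes that the rule names are not reported here. Replicate numbers come from titles, mark different mice and did not pair the libraries (correlation of same-numbered deviations -0.305 to 0.068). No 2 libraries of the same group were duplicates, over 40 pairs. Pairs of libraries from different groups were not checked.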

Additional observations from a re-analysis of the deposited data

Results flagged for a closer look

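In 208 groups of 5 that were checked, 20 held 1 library standing apart from the other 4 (gap over range above 0.71). For independent, normally distributed values about 1 in 20 groups would. The genes were checked as CPM, were chosen with earlier results known, and the lists share members. Whether 20 exceeds chance therefore cannot be read from this count. At 1 month, replicate 5 stood high for 4 immune genes: Cst7 at 19.4 CPM (others 0.238 to 4.30), C3 at 109 CPM (2.18 to 14.6), Cd74 at 734 CPM (1.02 to 178) and Jchain at 61.1 CPM (0.582 to 13.9). Replicate 4 at 1 month stood high for Malat1 at 590 CPM (162 to 274), Meg3 at 733 CPM (185 to 278), Bc1 at 4036 CPM (1300 to 1681), Camk2n1 at 2284 CPM (994 to 1045) and Kcnmb4 at 73.0 CPM (53.4 to 58.6). The same library had the highest mean log2 CPM of the interneuron list, 5.47 (5.17 to 5.23), and of the circadian clock list, 5.2 (4.94 to 5.00). Replicate 1 at 1 month had 66.3 CPM of Acss2 (51.5 to 53.1), and replicate 2 had 381 CPM of Rps14 (282 to 311).

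At 6 months, replicate 4 stood low for Bc1 at 160 CPM (715 to 918), Kcnmb4 at 32.0 CPM (37.1 to 39.1) and the mean log2 CPM of the respiratory chain list, 6.14 (6.32 to 6.37). Replicate 1 stood high for Jchain at 3.58 CPM (0.762 to 1.37) and Ighg2c at 0.895 CPM (0.244 to 0.400). Replicate 2 stood high for the sterol enzymes Hmgcs1 at 327 CPM (156 to 195) and Msmo1 at 83.9 CPM (38.8 to 48.4). For none of 104 genes and lists did the 2 ages separate without overlap in both vector and upACSS2 mice and in opposite directions. Opposite shifts with overlapping groups do not meet this rule.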

How the results depend on the processing

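The count of 1182 called genes in vector mice was 1871 by DESeq2, 656 with no filter on low counts, 782 with the replicate block, 0 with the ribosomal RNA covariate (1753 at an unadjusted p below 0.05) and 342 without the 3 libraries highest in neighbouring-tissue markers, a setting chosen after seeing the data. It ran from 374 to 1376 over the fits without 1 vector library. It stayed within 1.5 times with RLE factors (1215), library size alone (1239) and only the vector libraries (1316). Of the 1182 genes, 1178 were also called by DESeq2 and 763 with the block; the replicate numbers did not pair the mice. The share of calls that were higher, 61.5%, became 85.4% with library size alone, 73.3% with no filter, 51.7% by DESeq2 and 91.5% without the 3 libraries. In upACSS2 mice the 7 genes became 174 by DESeq2, 4 with no filter, 1 with only those libraries, 0 with the block and 0 with the covariate, and 0 to 16 without 1 library. The virus by time count of 0 became 3 by DESeq2. With the covariate the log2FC of Lars2 changed from -1.04 to 0.25. Lars2 counts are part of that covariate, so this change was built in and is not a result. The log2FC of Rps3 changed from -0.50 to 0.035 with the covariate, and the cause was not tested. Depth limits C5ar1, Ighg2c and Rn7sk, which lay below 1 CPM in most libraries of 1 group.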
